A study of Mus musculus with 16 samples.

Results

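The 10 genes *Postn*, *Spp1*, *Tnc*, *Thbs1*, *Thbs2*, *Thbs4*, *Sparc*, *Fn1*, *Ccn1* and *Ccn2* encode matricellular and provisional matrix proteins of the injured heart. They were taken by symbol from the 55492 genes of the deposited expression table, where all 10 were found and all 10 had at least 10 normalized counts on average, the level required for testing. RNA was sequenced from left ventricles of male C57BL/6 mice aged 8 to 12 weeks. PKM2fl/fl mice carry floxed alleles around the exon specific to PKM2, an isoform of the glycolytic enzyme pyruvate kinase, and served as controls. PKM2-/- mice lack that exon in every tissue, because it was deleted in the germline by Cre under a CMV promoter and the Cre allele was then bred out. The deletion is therefore not limited to any cell type of the heart. Each genotype contributed 2 unoperated hearts (baseline), 3 hearts taken 3 days after sham surgery, and 3 hearts taken 3 days after permanent ligation of the left anterior descending artery (MI). Sham surgery was the same operation with no ligation. Each library came from its own mouse, and whole ventricle tissue was pulverized, so infarct and remote muscle were not separated.

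Matricellular proteins are secreted into the extracellular matrix but serve mainly as signals between matrix and cells rather than as load-bearing fibers. They bind integrins, syndecans, growth factors and collagens, are scarce in most healthy adult tissue, and return when tissue is wounded. After coronary ligation they are known from the infarct and its border, where fibroblasts, macrophages and vessel cells make them while a fibronectin and collagen scar replaces lost muscle. In RNA from whole tissue, a rise in a transcript can come from more cells of one type or from more RNA per cell, and these cannot be told apart here.

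The values are read counts divided by each library's size factor and are called normalized counts below. Libraries held 20623769 to 71855101 reads, of which 15.8 to 46.1% lay on 5 loci related to ribosomal RNA. Over all genes, no pair of replicates agreed within counting error (lowest chi-square per degree of freedom 15.1). This measure included the loci related to ribosomal RNA, whose share differed between replicates, and their part in it was not tested. Their share also differed between genotypes. At baseline it was 17.3 and 22.1% in PKM2fl/fl and 43.8 and 39.7% in PKM2-/- libraries. After sham surgery it was 15.8 to 27.8% in PKM2fl/fl and 28.6 to 46.1% in PKM2-/- libraries. After MI the genotypes overlapped in this share. Beyond the alternative scalings given below, its part in the genotype comparisons was not tested. The targeted gene *Pkm* had 7779 to 12076 normalized counts in PKM2fl/fl and 10120 to 16113 in PKM2-/- libraries, and since this value sums both isoforms it does not check the genotype. The 6 cardiomyocyte markers summed to 716299 to 930690 normalized counts in baseline and sham libraries and to 162601 to 371102 in MI libraries, so the labelled tissue was present in all of them.

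The upstream sequences of 7 members were at hand from RefSeq (build GRCm38.p6), and those of *Thbs1*, *Fn1* and *Ccn2* were not. Shown here are the 250 bases before the transcript start of 4 genes that span the range of the response to MI described next: *Spp1* and *Tnc*, with the largest fold changes, *Ccn1*, with a small one, and *Thbs2*, which missed the 2-fold level. They are written 5′ to 3′ on the strand of the gene, and capitals mark matches to any of 7 motifs. The regions are chr5:104434861-104435110 (plus strand) for *Spp1*, chr4:64047016-64047265 (minus strand) for *Tnc*, chr3:145649986-145650235 (minus strand) for *Ccn1* and chr17:14694263-14694512 (minus strand) for *Thbs2*.
Spp1: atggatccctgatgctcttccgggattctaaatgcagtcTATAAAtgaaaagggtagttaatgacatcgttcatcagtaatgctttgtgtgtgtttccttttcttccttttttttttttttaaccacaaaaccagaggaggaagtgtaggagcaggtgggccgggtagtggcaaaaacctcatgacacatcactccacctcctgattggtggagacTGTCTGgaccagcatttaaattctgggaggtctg
Tnc: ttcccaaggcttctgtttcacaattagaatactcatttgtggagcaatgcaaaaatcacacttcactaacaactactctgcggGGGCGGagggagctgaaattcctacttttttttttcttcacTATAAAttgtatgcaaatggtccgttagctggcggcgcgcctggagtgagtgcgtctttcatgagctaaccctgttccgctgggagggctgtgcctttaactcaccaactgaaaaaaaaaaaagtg
Ccn1: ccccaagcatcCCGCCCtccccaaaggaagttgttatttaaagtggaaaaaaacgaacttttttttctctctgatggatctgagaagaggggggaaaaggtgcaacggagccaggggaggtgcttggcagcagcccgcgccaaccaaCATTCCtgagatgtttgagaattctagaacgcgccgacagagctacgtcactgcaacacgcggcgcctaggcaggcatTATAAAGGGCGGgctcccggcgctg
Thbs2: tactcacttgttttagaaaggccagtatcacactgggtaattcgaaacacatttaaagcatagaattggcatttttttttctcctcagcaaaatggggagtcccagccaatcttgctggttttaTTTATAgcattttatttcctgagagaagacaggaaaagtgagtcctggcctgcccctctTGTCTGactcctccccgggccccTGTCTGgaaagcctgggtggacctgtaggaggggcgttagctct

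Motifs were searched on both strands in the same 250 bases of 27025 genes. The letters TATAAA were found upstream of *Spp1*, *Tnc*, *Thbs2* and *Ccn1*, against 12.97% of all genes. In *Ccn1* they lay at -25 to -20 from the start, directly before the match to GGGCGG. They lay farther upstream in *Spp1* (-211 to -206) and in *Tnc* and *Thbs2* (-126 to -121 in each). The SMAD-type letters CAGACA were found in *Spp1*, *Thbs2*, *Thbs4* and *Sparc* (17.07% of all genes), the TEAD-type letters CATTCC in *Thbs4* and *Ccn1* (12.63%), and the GC box GGGCGG in *Tnc*, *Thbs4* and *Ccn1* (32.94%). In *Thbs4*, 2 matches to CATTCC overlapped by 1 base. The AP-1 letters TGANTCA (6.87% of all genes), the CRE TGACGTCA (1.62%) and the CArG box (1.40%) were in none of the 7. The upstream sequence of *Postn* held none of the 7 motifs. Genes with the letters TATAAA, at these unlike positions, thus stood both at the top (*Spp1*, *Tnc*) and at the bottom (*Ccn1*, *Thbs2*) of the response to MI.

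To ask which members respond to infarction with PKM2 present, MI was compared with sham in PKM2fl/fl hearts. A gene was called changed when its adjusted p (limma, Benjamini-Hochberg over 20576 genes) was under 0.05 and its change at least 2-fold. By this rule 9 of the 10 members rose, and *Thbs2* passed the p but not the 2-fold level. Of all genes tested, 12.4% were called higher and 11.1% lower. The median log2 fold change was 3.12 over the 10 members and -0.003 over all genes tested. Every MI library was above every sham library for 10 of 10 members, which held for 30.0% of all genes.

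*Spp1* encodes osteopontin, a phosphoprotein that binds αv integrins and CD44 and is made in the infarct largely by macrophages. It had 157, 320.3 and 41.2 normalized counts in the 3 PKM2fl/fl sham hearts and 15104, 9912 and 16319 in the 3 MI hearts. The sham hearts spread over more than the MI hearts did in proportion (SD 81.1% against 24.7% of the mean), yet the groups lay far apart. The log2 fold change was 6.71 (SE 0.71, adjusted p = 3.06e-06), the third highest of all genes tested.

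*Tnc*, tenascin-C, is an oligomeric glycoprotein that loosens cell adhesion at wound margins. It had 169, 477 and 117 normalized counts in sham and 17349, 10207 and 15031 in MI hearts of PKM2fl/fl mice, with no overlap. Its log2 fold change of 6.03 (SE 0.51, adjusted p = 4.77e-07) was the 4th highest of all genes tested. *Tnc* overlaps an antisense gene, described below.

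*Fn1*, fibronectin, is the main protein of the provisional matrix on which fibroblasts and macrophages move into the infarct. It had 2409, 4131 and 1792 normalized counts in sham and 38087, 35428 and 64358 in MI hearts of PKM2fl/fl mice. The third MI heart stood well above the other two, and the groups did not overlap. The log2 fold change was 4.08 (SE 0.28, adjusted p = 6.88e-08).

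*Postn* encodes periostin, which links collagen to integrins and marks activated fibroblasts. It had 1328, 1532 and 772 normalized counts in sham and 16451, 15981 and 16845 in MI hearts of PKM2fl/fl mice. The MI hearts were nearly level, with an SD of 2.63% of the mean, whereas the sham hearts varied by 32.5%. The log2 fold change was 3.82 (SE 0.24, adjusted p = 4.40e-08). *Thbs1*, thrombospondin-1, activates latent TGF-beta and inhibits angiogenesis through CD36 and CD47. It had 691, 943 and 405 normalized counts in sham and 10222, 5331 and 14897 in MI hearts, and its log2 fold change was 3.86 (SE 0.37, adjusted p = 1.21e-06). The MI hearts ranged widely (SD 47.1% of the mean) but all lay above the sham hearts.

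The remaining thrombospondins moved far less. *Thbs4* encodes a pentameric thrombospondin of tendon and loaded muscle. It had 207, 120.1 and 149.5 normalized counts in sham and 742, 328 and 322 in MI hearts of PKM2fl/fl mice, with a log2 fold change of 1.46 (SE 0.29, adjusted p = 7.00e-04). The first MI heart stood well above the other two, and still no MI heart overlapped a sham heart. *Thbs2*, a trimeric relative of thrombospondin-1 that takes part in collagen fibril assembly, had 1074, 929 and 970 normalized counts in sham and 1445, 1687 and 1300.5 in MI hearts. Its log2 difference was 0.57 (SE 0.14, adjusted p = 0.00330), below the 2-fold level.

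*Sparc* encodes a collagen-binding protein needed for collagen maturation in the scar. It had 4060, 6347 and 4712 normalized counts in sham and 21538, 21266 and 20974 in MI hearts of PKM2fl/fl mice. The 3 MI hearts differed by an SD of only 1.33% of the mean. The log2 fold change was 2.10 (SE 0.17, adjusted p = 3.40e-07). *Ccn2*, connective tissue growth factor, and *Ccn1*, a relative also known as CYR61, are both immediate targets of YAP and of serum response factor. *Ccn2* had 1254, 870.5 and 900.5 normalized counts in sham and 5673, 4394 and 6098 in MI hearts (log2 fold change 2.42, SE 0.18, adjusted p = 1.23e-07). *Ccn1* had 771, 769.9 and 886 normalized counts in sham and 2156, 1762 and 1667 in MI hearts (log2 fold change 1.20, SE 0.16, adjusted p = 2.32e-05). Both rose in every MI heart above every sham heart.

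**Figure D1:**
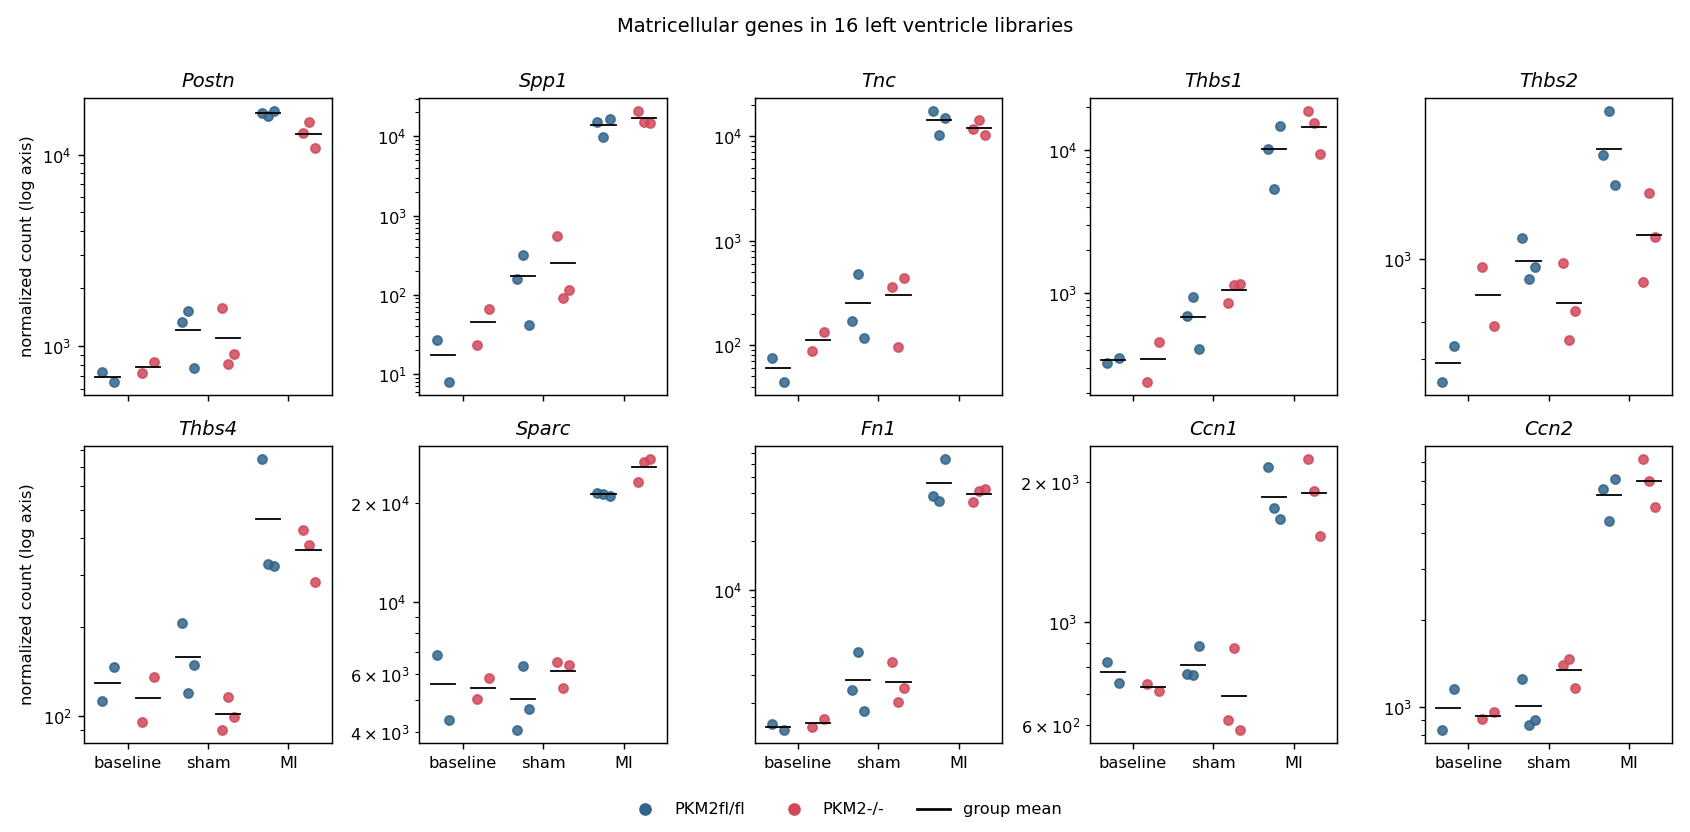
Normalized counts (log axes, 1 panel per gene with its own range) of the 10 genes in each of the 16 libraries, by condition, with PKM2fl/fl in blue and PKM2-/- in red; points are libraries and lines group means. MI libraries lie above all sham libraries of the same genotype in every panel except that of *Thbs2* in PKM2-/- hearts, where 919 to 1260 counts in MI overlap 748 to 985 in sham.

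The same comparison in PKM2-/- hearts asks whether the response is present without PKM2. Again 9 of 10 members rose and *Thbs2* passed only the p, where 14.5% of all genes were called higher and 14.3% lower. The median log2 fold change was 2.87 over the members and 0.01 over all genes tested. With total count scaling that median of all genes moved to 0.52 in PKM2-/- and -0.17 in PKM2fl/fl hearts, and 78.4% of called genes were higher in PKM2-/- (50.2% otherwise) and 41.8% in PKM2fl/fl (52.8% otherwise), with 9 members still called in each. MI and sham libraries did not overlap for 9 of 10 members, all higher (31.7% of all genes), and *Thbs2* was the exception.

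*Spp1* had 548, 91.4 and 115 normalized counts in PKM2-/- sham and 20738, 15272 and 14545 in MI hearts, a log2 fold change of 6.52 (SE 0.71, adjusted p = 2.43e-06). *Tnc* had 362, 96.6 and 441 normalized counts in sham and 11699, 14332 and 10295 in MI hearts, a log2 fold change of 5.58 (SE 0.51, adjusted p = 6.30e-07). These ranked 3 and 9 among all genes tested in PKM2-/- hearts, and the sham hearts again carried most of the spread. *Fn1* had 3579, 2046 and 2466 normalized counts in sham and 34905, 41193 and 42257 in MI hearts (log2 fold change 3.90, SE 0.28, adjusted p = 6.77e-08). *Thbs1* had 857, 1131 and 1155 normalized counts in sham and 18782, 15540 and 9468 in MI hearts (log2 fold change 3.76, SE 0.37, adjusted p = 1.01e-06). None of these genes had any overlap between sham and MI libraries.

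*Postn* had 1590, 811 and 907 normalized counts in PKM2-/- sham and 12925, 14755 and 10794 in MI hearts (log2 fold change 3.59, SE 0.24, adjusted p = 4.74e-08). *Ccn2* had 1395, 1468 and 1161 normalized counts in sham and 7162, 6000.4 and 4918 in MI hearts (log2 fold change 2.16, SE 0.18, adjusted p = 2.53e-07). Neither gene's groups overlapped. *Sparc* had 6533, 5432 and 6401 normalized counts in sham and 23247, 26760 and 27233 in MI hearts (log2 fold change 2.07, SE 0.17, adjusted p = 2.77e-07). *Thbs4* had 90.0, 116 and 99.2 normalized counts in sham and 429, 380.4 and 286 in MI hearts (log2 fold change 1.82, SE 0.29, adjusted p = 8.08e-05). Neither *Sparc* nor *Thbs4* had a sham library that reached an MI library. *Ccn1* had 616, 879 and 586 normalized counts in sham and 2242, 1912 and 1531 in MI hearts (log2 fold change 1.46, SE 0.16, adjusted p = 2.67e-06). *Thbs2* had 985, 748 and 831 normalized counts in sham and 919, 1260 and 1081 in MI hearts, and its log2 difference of 0.34 (SE 0.14, adjusted p = 0.0483) lay below the 2-fold level. One of its MI hearts fell within the sham range.

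**Figure D2:**
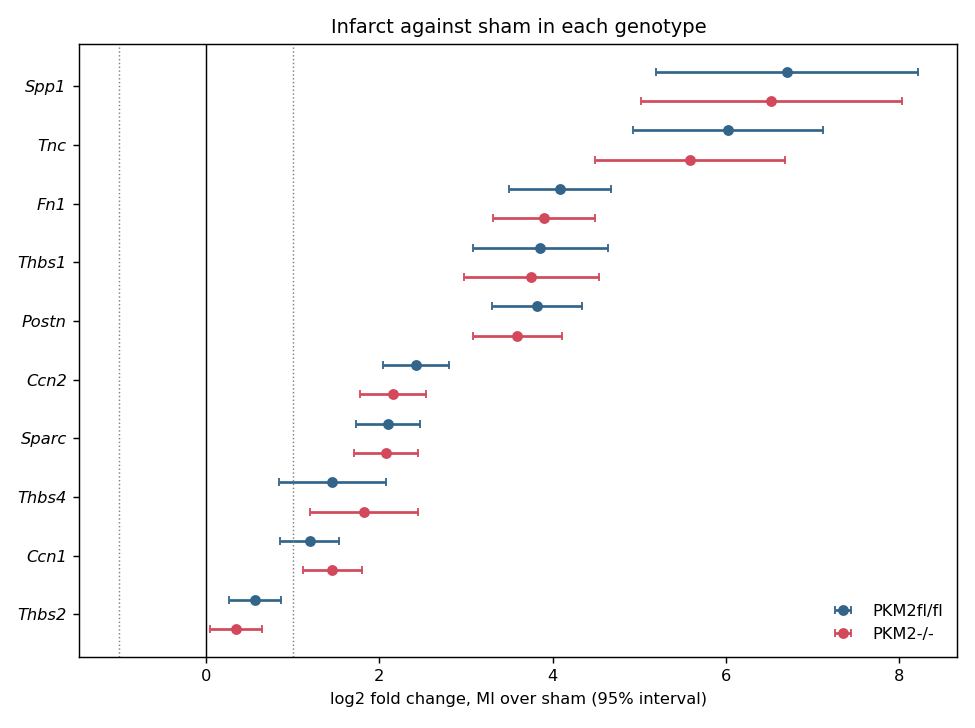
Log2 fold change of MI over sham for each gene in PKM2fl/fl (blue) and PKM2-/- (red) hearts, n = 3 per group, with bars for the 95% interval of the limma fit and dotted lines at 2-fold. *Spp1* (6.71 and 6.52) and *Tnc* (6.03 and 5.58) stand at the top and *Thbs2* (0.57 and 0.34) at the bottom, and the intervals of both genotypes overlap for every gene.

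Whether the response to MI differed between genotypes was tested as an interaction. It was called for 0 of 10 members, and for 0% of all genes by limma, where 1703 genes had an unadjusted p under 0.05. DESeq2 on the recovered reads called 36 genes and edgeR 0, none of them a member. The largest differences in size among members were those of *Tnc* (log2 -0.44, 95% interval -2.00 to 1.11) and *Thbs4* (0.36, interval -0.52 to 1.24). The intervals were narrowest for *Thbs2* (-0.65 to 0.20), *Ccn1* (-0.22 to 0.74) and *Sparc* (-0.55 to 0.49), so a 2-fold difference in response lay outside them in this fit. Over the alternatives of processing listed below, the estimates ran from -0.34 to 0.46 for *Thbs2*, 0.13 to 0.95 for *Ccn1* and -0.21 to 0.66 for *Sparc*. Whether 2-fold lay outside the intervals under those alternatives was not tested. For *Spp1* the interval ran from -2.31 to 1.95, which leaves room for a difference of 2-fold in either direction. The interval of *Thbs1* (-1.21 to 1.00) was also wide.

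**Figure D3:**
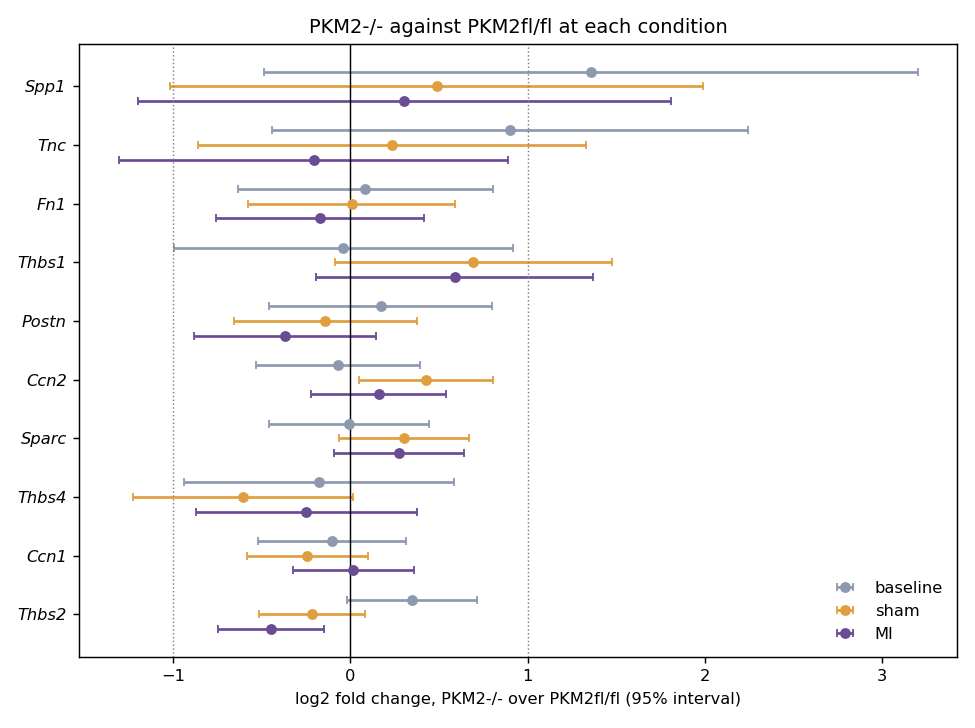
Log2 fold change of PKM2-/- over PKM2fl/fl for each gene at baseline (grey, n = 2 per genotype), after sham surgery (orange, n = 3) and after MI (purple, n = 3), with 95% intervals of the limma fit and dotted lines at 2-fold. The widest intervals belong to *Spp1* and *Tnc*; that of *Thbs2* after MI (-0.75 to -0.15) lies below 0 and that of *Ccn2* after sham (0.05 to 0.80) above it.

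The direct comparison of PKM2-/- with PKM2fl/fl hearts after MI called 0 of 10 members, against 0.413% of all genes (32 higher and 53 lower, and 101 higher and 20 lower with total count scaling). In 3 members the libraries of the genotypes did not overlap. *Thbs2* was lower in PKM2-/- hearts (919 to 1260 against 1300.5 to 1687 normalized counts), with a log2 difference of -0.45 (SE 0.14, adjusted p = 0.123). *Postn* was lower as well (10794 to 14755 against 15981 to 16845), with a log2 difference of -0.37 (SE 0.24, adjusted p = 0.463). *Sparc* was higher (23247 to 27233 against 20974 to 21538), with a log2 difference of 0.27 (SE 0.17, adjusted p = 0.445). Of all genes, 8.26% lay wholly lower and 10.7% wholly higher in this comparison, so 2 and 1 of 10 members are not far from that background. For *Thbs1* the log2 difference was 0.59 (interval -0.19 to 1.37) and for *Spp1* 0.30 (interval -1.20 to 1.81), both with overlapping libraries. The sum of the 5 neutrophil markers was 3527 to 4521 normalized counts in PKM2-/- and 1232 to 2138 in PKM2fl/fl MI hearts, and that of the cardiomyocyte markers 163264 to 235854 and 162601 to 371102. The platelet and megakaryocyte markers summed to 2020 to 3287 in PKM2-/- and 1129 to 1680 in PKM2fl/fl MI hearts, and the myofibroblast markers to 5062 to 7412 and 7540 to 8381. Of the neutrophil, cardiomyocyte, platelet and myofibroblast markers tested, 0 were called between genotypes after MI. The sums of the macrophage markers (22932 to 27660 and 18515 to 28099) overlapped, as did those of the monocyte, fibroblast and endothelial markers. The part of these cell types in the differences of *Thbs2*, *Postn*, *Sparc* and *Thbs1* was not tested.

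After sham surgery 0 of 10 members were called between genotypes, against 0.00486% of all genes. *Ccn2* had 1395, 1468 and 1161 normalized counts in PKM2-/- and 1254, 870.5 and 900.5 in PKM2fl/fl sham hearts, a log2 difference of 0.42 (SE 0.18, adjusted p = 0.437). *Thbs4* was the only member whose sham libraries did not overlap, being lower in PKM2-/- hearts (log2 difference -0.61, SE 0.29, adjusted p = 0.514), where 8.28% of all genes lay wholly lower. In PKM2-/- sham hearts *Thbs1* had 857 to 1155 normalized counts and in PKM2fl/fl sham hearts 405 to 943, so its libraries overlapped (log2 difference 0.69, SE 0.37, adjusted p = 0.569).

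At baseline 0 of 10 members were called, against 0.00972% of all genes. *Tnc* had 88.6 and 134 normalized counts in PKM2-/- and 75.4 and 44.5 in PKM2fl/fl hearts, and its log2 difference of 0.90 (interval -0.44 to 2.24) rested on 67 to 96 reads a library. *Thbs2* had 972 and 788 normalized counts in PKM2-/- and 646 and 733 in PKM2fl/fl hearts, a log2 difference of 0.35 (SE 0.17, adjusted p = 1) that turned negative (-0.24) when libraries were scaled by total count. *Ccn1* was lower in both PKM2-/- hearts (737 and 711 against 820.2 and 738), with a log2 difference of -0.10 (SE 0.20). With 2 libraries per genotype, complete separation was found for 17.7% of all genes in the higher and 17.2% in the lower direction. For *Spp1*, PKM2fl/fl baseline hearts had 34 and 12 reads, and the interval of its log2 difference ran from -0.49 to 3.20.

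In these normalized counts *Thbs2* was higher in PKM2-/- hearts at baseline and lower after MI. The difference between these differences was tested in the same limma fit, after its values had been seen. It was -0.79 on the log2 scale (SE 0.22, 95% interval -1.27 to -0.32), with an adjusted p of 0.311 over all genes. With total count scaling it turned to 0.16 (adjusted p = 0.778), where *Thbs2* was at -0.24 at baseline and -0.08 after MI. Total count scaling without the loci related to ribosomal RNA gave -0.50 (adjusted p = 0.400), and TMM scaling gave -0.76 (adjusted p = 0.309). In the limma fit of the normalized counts, the adjusted p of the other members for this difference ran from 0.700 to 0.979.

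Sham surgery was compared with baseline to see how much of the rise belongs to the operation. In PKM2fl/fl hearts 0 of 10 members were called, against 0.160% of all genes called higher. The libraries of 6 members lay wholly higher in sham (17.4% of all genes). The same 6, *Postn*, *Spp1*, *Tnc*, *Thbs1*, *Thbs2* and *Fn1*, had an unadjusted p under 0.05 in limma, as did 1813 of the 20576 genes tested. *Spp1* went from 26.7 and 7.96 normalized counts at baseline to 157, 320.3 and 41.2 in sham, a log2 difference of 3.03 (SE 0.79, adjusted p = 0.144). *Tnc* went from 75.4 and 44.5 to 169, 477 and 117 normalized counts, a log2 difference of 1.85 (SE 0.58, adjusted p = 0.249). Both fell short of the threshold in limma, and 3 alternatives called *Spp1*: total count scaling (adjusted p = 8.24e-04), DESeq2 (0.0208) and array weights (0.0192). Leaving out the third PKM2fl/fl sham heart, the lowest of its group for 5 members, raised the number called from 0 to 2, *Spp1* (log2 fold change 3.84, adjusted p = 0.0178) and *Postn* (1.05, adjusted p = 0.0469). *Fn1* (log2 difference 0.88), *Thbs1* (0.92), *Postn* (0.75) and *Thbs2* (0.52) had adjusted p-values from 0.226 to 0.530. *Sparc*, *Ccn1* and *Ccn2* had log2 differences between -0.14 and 0.05, and *Thbs4* one of 0.26.

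In PKM2-/- hearts *Thbs1* was the only member called between sham and baseline, against 2.06% of all genes called higher. It went from 239 and 453 normalized counts at baseline to 857, 1131 and 1155 in sham, a log2 fold change of 1.66 (SE 0.41, adjusted p = 0.0309). The call was lost when any of these 5 libraries was left out (adjusted p up to 0.290) and in edgeR (adjusted p = 0.0557). *Spp1* went from 23.3 and 66.0 to 548, 91.4 and 115 normalized counts, a log2 difference of 2.16 (SE 0.79, adjusted p = 0.137). *Tnc* differed by 1.19 (SE 0.58, adjusted p = 0.284), and its lowest sham heart, with 96.6 normalized counts, lay between the baseline hearts with 88.6 and 134. *Fn1* and *Ccn2* were wholly higher in sham, as were *Spp1* and *Thbs1* (18.4% of all genes), with log2 differences of 0.80 and 0.51 and adjusted p-values of 0.160 and 0.163. *Thbs2*, *Thbs4*, *Sparc* and *Ccn1* differed by -0.17 to 0.17. Between sham and baseline, 5 of 5 neutrophil markers (median log2 fold change 3.41), 2 of 6 macrophage markers, 1 of 3 monocyte markers and the 1 adipocyte marker tested were called higher in PKM2-/- hearts. In PKM2fl/fl hearts 1 monocyte marker was called and 0 of 5 neutrophil markers, whose median was 2.82. The part of these cells in the values of *Thbs1* and *Spp1* was not tested. Both comparisons rest on 2 baseline hearts per genotype. Sham and MI comparisons share the sham hearts, and the size of either one moves with their spread.

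To compare levels between genes, normalized counts were divided by the length of each gene's canonical transcript (GENCODE release M39). The full length was used, although exons of *Ccn2*, *Ccn1* and *Spp1*, for example, share 1164, 468 and 362 bases with other genes. How reads in shared bases were counted is not known, and their effect on the order was not tested. By this measure *Sparc* was highest in all 6 groups, from 2183 to 11151 normalized counts per kb. At baseline the order in PKM2fl/fl hearts ran from *Sparc* (2430 per kb) over *Ccn1* (384), *Ccn2* (365), *Postn* (218), *Fn1* (169), *Thbs2* (116), *Thbs1* (54.3) and *Thbs4* (40.6) to *Tnc* (8.21) and *Spp1* (7.77). The neighbours *Ccn1* and *Ccn2* overlapped in this order, as did *Tnc* and *Spp1*. After MI *Spp1* stood next to *Sparc* with 6182 per kb, followed by *Fn1* (5465) and *Postn* (5188), and the libraries of these 3 overlapped. Next in PKM2fl/fl MI hearts came *Ccn2* (1974 per kb), *Tnc* (1945), *Thbs1* (1628) and *Ccn1* (916), each overlapping its neighbour, and *Thbs2* (249) and *Thbs4* (145) were lowest. In PKM2-/- MI hearts *Sparc* (11151 per kb), *Spp1* (7560), *Fn1* (4691) and *Postn* (4051) led in the same order, with *Spp1* wholly above *Fn1*. *Thbs2* and *Thbs4* were again lowest, with 183 and 114 per kb. *Spp1* and *Tnc* held the 2 lowest places at baseline in both genotypes, with overlapping libraries, and after MI *Spp1* stood directly below *Sparc* in both.

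**Figure D4:**
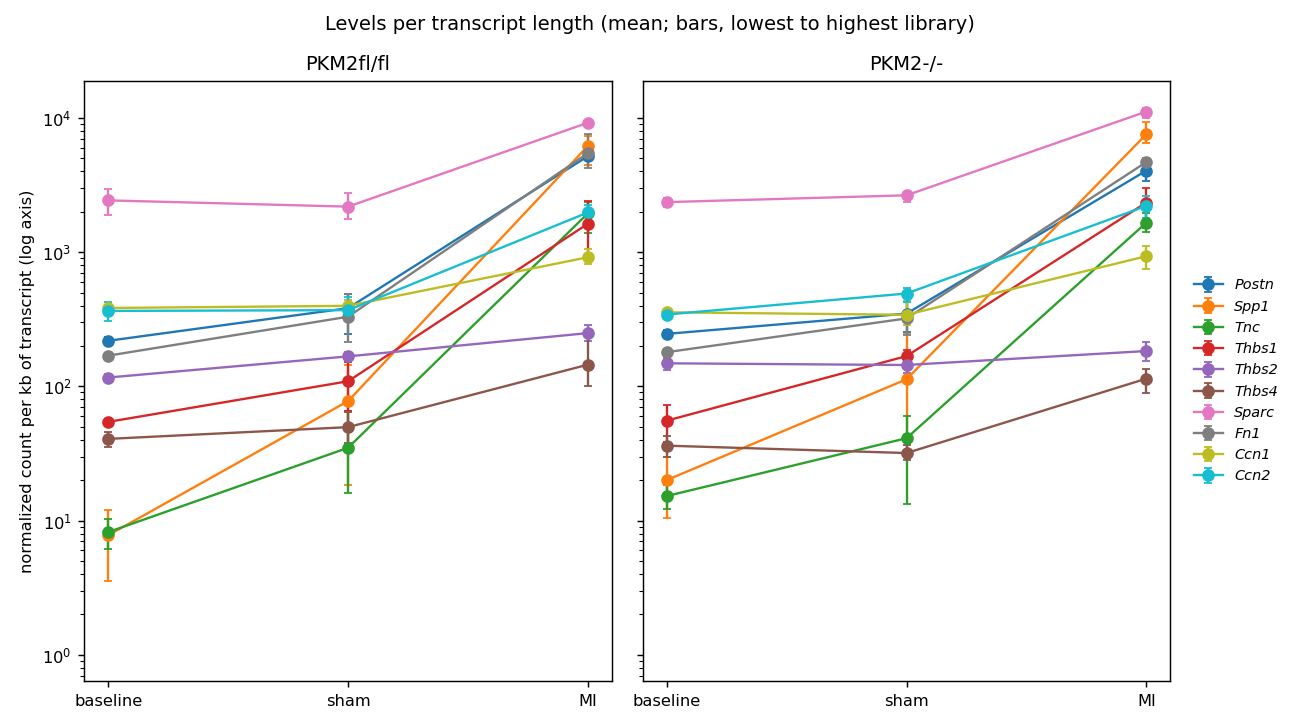
Mean normalized counts per kb of transcript (log axis) of the 10 genes at baseline, after sham and after MI in PKM2fl/fl (left) and PKM2-/- (right) hearts, with bars from the lowest to the highest library. *Sparc* is highest throughout, and *Spp1* climbs from 7.77 to 6182 per kb in PKM2fl/fl hearts.

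Several members overlap other annotated genes, and the library kit did not mark the strand, so reads from the overlap cannot be assigned to either gene. The antisense long non-coding RNA *8030451A03Rik* overlaps the *Tnc* gene, introns included, over 67353 bases (GENCODE release M39). Of its 6847 exon bases, 303 are shared with exons of *Tnc*. It held 66.5 to 80.8% as many reads as *Tnc* in every library. Its correlation with *Tnc* over the 16 libraries was 0.9997, and 0.995 after removal of the group means. It went up in MI by a log2 fold change of 6.02 in PKM2fl/fl and 5.45 in PKM2-/- hearts. In the same way *Gm15270*, antisense to *Ccn2* with 1164 shared exon bases, held 46.3 to 69.2% as many reads as *Ccn2* (r = 0.996, n = 16). *Gm17501*, antisense to *Ccn1*, held 7.55 to 18.9%, and *Apol7d*, which runs against *Fn1*, held 2.86 to 4.13%. *Gm42793*, on the same strand as *Spp1*, held 0 to 9.63% as many reads as *Spp1*. *Gm29233* and *Gm13986*, antisense to *Thbs1*, held 2.83 to 6.89% and 1.56 to 9.76%. When the counts of these overlapping genes were added to the members, an alternative chosen after seeing the data, the members called stayed at 9 in both MI comparisons and the log2 fold change of *Tnc* was 6.03 in PKM2fl/fl and 5.53 in PKM2-/- hearts. How many of these reads belong to each gene was not tested.

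**Figure D5:**
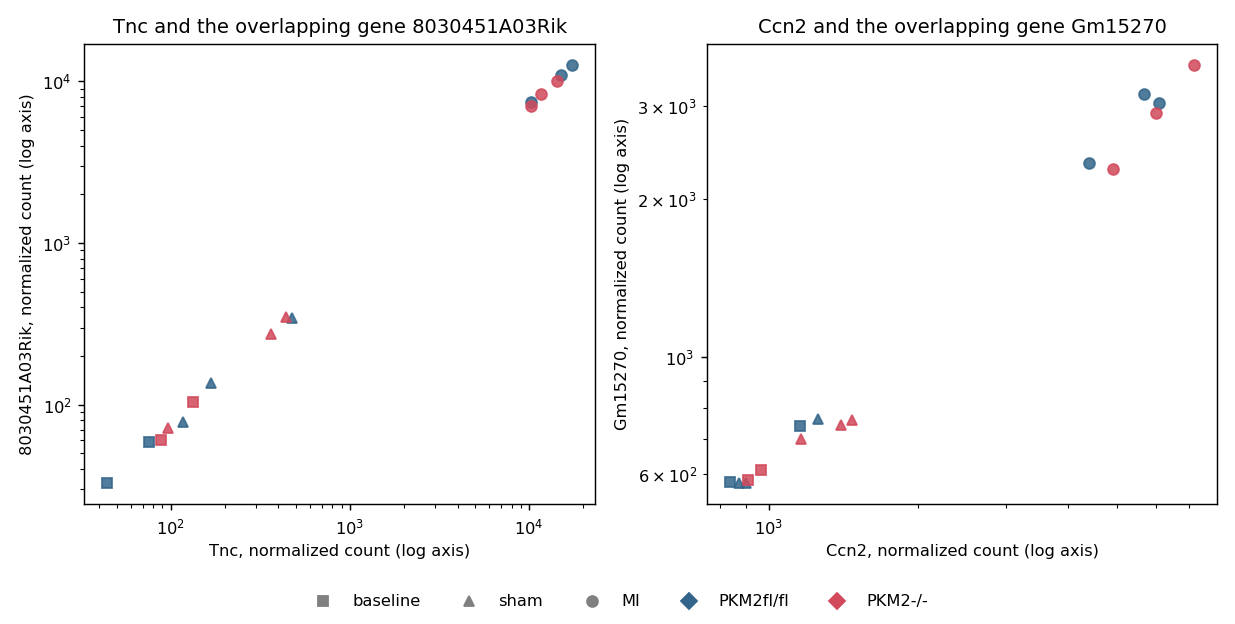
Normalized counts (log axes) of *Tnc* against *8030451A03Rik* and of *Ccn2* against *Gm15270*, genes on the opposite strand with shared exon bases, in the 16 libraries; squares are baseline, triangles sham and circles MI, with PKM2fl/fl in blue and PKM2-/- in red. Both pairs lie along a line through all groups (r = 0.9997 and 0.996).

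Members varied together unequally among hearts of the same group. After removal of the group means, the correlation over 16 libraries was 0.90 for *Postn* with *Spp1*, 0.76 for *Spp1* with *Fn1*, 0.73 for *Postn* with *Fn1*, 0.71 for *Spp1* with *Tnc* and 0.67 for *Postn* with *Tnc*. *Thbs4* ran with *Ccn2* (0.59) and *Ccn1* (0.54), and *Sparc* ran against *Ccn2* (-0.69). *Thbs1* and *Thbs2* had opposite signs (-0.58). These values describe 16 libraries that share one normalization. Over all libraries, group differences included, every pair of members correlated positively, from 0.66 (*Thbs1* with *Thbs2*) to 0.99 (*Postn* with *Fn1*).

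Among MI hearts, the second PKM2fl/fl heart was the lowest of its group for 6 members (*Postn*, *Spp1*, *Tnc*, *Thbs1*, *Fn1*, *Ccn2*) and the highest for *Thbs2*. The third PKM2-/- heart was the lowest of its group for 7 members and the highest for *Sparc* and *Fn1*. The summed cardiomyocyte markers were 371102, 345375 and 162601 normalized counts in the PKM2fl/fl MI hearts and 235854, 169599 and 163264 in the PKM2-/- MI hearts. The third PKM2fl/fl heart, lowest in cardiomyocyte markers, was highest of its group for *Postn*, *Spp1*, *Thbs1*, *Fn1* and *Ccn2* and lowest for *Thbs2*, *Thbs4*, *Sparc* and *Ccn1*. In PKM2-/- mice the heart lowest in cardiomyocyte markers was the third, the one lowest for 7 members, so the members had no common order with these markers. The labels give no infarct size for any heart.

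For each member, the other genes with the most similar pattern over the 16 libraries (mean of at least 100 normalized counts) were listed. For *Postn* and *Fn1* these included *Tacc3* (r = 0.992 and 0.995), a protein of the mitotic spindle, and for *Spp1* the spindle checkpoint kinase *Bub1b* (0.989). *Tacc3* rose by a log2 fold change of 2.91 in PKM2fl/fl and 3.28 in PKM2-/- hearts after MI, and *Bub1b* by 2.85 and 3.30. *Cdc25b*, a phosphatase of the cell cycle, came second for *Postn* (0.991). For matrix partners, *Tnc* ran with the fibril-associated collagen *Col12a1* (0.993), *Thbs1* with the proteoglycan versican, *Vcan* (0.994), and *Ccn2* with the protease *Pappa* (0.990). *Thbs4* was most like *Cilp* (0.941), a matrix protein of cartilage and scar, and the macrophage elastase *Mmp12* (0.933). *Sparc* ran with *Dap* (0.992) and *Ttyh3* (0.991), and *Ccn1* with the nuclear export receptor *Xpo6* (0.983) and *Dera* (0.971). *Thbs2* had the weakest likenesses, *Mmp16* (0.910) and *Stx5a* (0.904). The genes ranked first for *Spp1*, *Tnc*, *Fn1* and *Ccn2*, and second for *Thbs1*, were the overlapping genes named above. The r values of this paragraph include the differences between groups, such as that of MI from sham. After removal of the group means, r of the other pairs ran from 0.55 (*Thbs4* with *Mmp12*) to 0.94 (*Fn1* with *Tacc3*). It was 0.78 for *Postn* with *Tacc3*, 0.80 for *Spp1* with *Bub1b* and 0.55 for *Postn* with *Cdc25b*.

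Other matricellular genes were read from a list of 26, of which 22 reached the level for testing. In PKM2fl/fl hearts 10 rose, 3 fell and 9 were not called after MI, with a median log2 fold change of 0.88. In PKM2-/- hearts 12 rose and 4 fell, with a median of 1.08. *Ccn4*, a WNT-induced relative of *Ccn1* and *Ccn2*, went from 51.9 ± 17.6 (SD, n = 3) normalized counts in sham to 1069 ± 193 (n = 3) in MI hearts of PKM2fl/fl mice (log2 fold change 4.37). *Lgals3*, galectin-3, a lectin of macrophages, rose by 4.21, the secreted glycoprotein *Fstl1* by 2.31 and fibulin-2 (*Fbln2*) by 1.99 on the log2 scale. The bone sialoprotein gene *Ibsp* was at 0 in all 16 libraries. The genes that fell in PKM2fl/fl hearts were *Tnxb*, *Spock2* and *Vtn* (log2 fold changes -1.16, -1.55 and -1.09). *Tnxb* encodes tenascin-X, a relative of tenascin-C, so members of one family moved in opposite directions.

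Of 19 genes for receptors of these proteins, 10 rose and 1 fell in PKM2fl/fl hearts after MI (median log2 fold change 1.11), and 9 rose and 2 fell in PKM2-/- hearts (median 0.93). The fibronectin receptor chain *Itga5* went from 1121 ± 16.6 to 4415 ± 1015 normalized counts (mean ± SD, n = 3 each) in PKM2fl/fl hearts, a log2 fold change of 1.95. *Itgav* and *Itgb3*, which together form a receptor for osteopontin, periostin and thrombospondin-1, rose by 1.66 and 2.16, and syndecan-1 (*Sdc1*) rose by 2.32. *Cd36*, a thrombospondin receptor and fatty acid transporter of cardiomyocytes and capillaries, fell by 1.34 on the log2 scale. The osteopontin receptor *Cd44* counted among the genes that rose in PKM2fl/fl hearts, but its MI libraries held 105217, 10644 and 99615 normalized counts, with 43.8%, 19.8% and 44.7% of reads on the loci related to ribosomal RNA. The part of that share in the *Cd44* value was not tested.

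Of 12 partners in the collagenous matrix, 11 rose in PKM2fl/fl and 10 in PKM2-/- hearts after MI, with median log2 fold changes of 2.50 and 2.55. *Loxl2*, a collagen cross-linking enzyme, had a log2 fold change of 3.09 in PKM2fl/fl and 2.71 in PKM2-/- hearts. *Col5a2*, a chain of the collagen that nucleates fibrils, had 2.74 and 2.91, fibrillin-1 (*Fbn1*) 2.09 and 2.08, and the procollagen protease *Bmp1*, which periostin binds, 1.50 and 1.70. The exception in both genotypes was decorin, *Dcn*, at -0.53 and -0.58. Among 15 regulators known to act on matricellular genes, 7 rose in PKM2fl/fl and 5 in PKM2-/- hearts (median 0.66 and 0.50). *Runx1* (2.25 and 2.29) and *Runx2* (1.94 and 2.21), transcription factors of osteogenic and hematopoietic programs, rose together with *Tgfb1* (1.45 and 1.31) and *Tgfb2* (1.35 and 1.05). The YAP partners *Tead1* and *Tead4* and *Yap1* itself were not called in either genotype, with *Yap1* at -0.50 and -0.53 and under 2-fold. Of these 4 lists, 0 genes were called between genotypes after MI or in the interaction.

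Markers of cell types moved with the members in MI. Of 6 cardiomyocyte markers, 5 fell in PKM2fl/fl and 6 in PKM2-/- hearts. Of 6 macrophage markers, 5 rose in each genotype, and their sum went from 5196 to 9331 normalized counts in PKM2fl/fl sham hearts to 18515 to 28099 in MI hearts. All 3 monocyte markers rose in both genotypes. Of 4 myofibroblast markers tested, 3 rose in each genotype, *Tagln* and *Meox1* in both, *Acta2* in PKM2fl/fl and *Fap* in PKM2-/- hearts. The fifth of that list, *Cthrc1*, was almost undetected. It had 1.83 normalized counts in the third PKM2fl/fl and 2.54 in the second PKM2-/- MI heart, and 0 in all other libraries. Of 6 resting fibroblast markers 0 were called higher and *Gsn* fell in each genotype. *Pdgfra* (log2 difference 0.70 in PKM2fl/fl and 0.84 in PKM2-/- hearts) and *Lum* (0.62 and 0.51) passed the p but not the 2-fold level. So did *Dcn*, in the other direction (-0.53 and -0.58), and *Dpt* and *Tcf21* passed neither. Of 5 endothelial markers 0 were called in either genotype. How much of each member's rise goes with these cell types was not tested.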

How the data were processed

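RNA was depleted of ribosomal RNA and sequenced paired-end from 16 mouse left ventricles with a kit that does not mark strand. Reads were trimmed, aligned to mm10 with HISAT2 and counted with featureCounts by the authors; the strand and multimapping settings are not given in the sources used here. The deposited table gives a signal per gene and library, the count divided by DESeq2's size factor. The authors' own columns in it hold the mean over libraries, a log2 fold change with its error, the Wald score and the p-value with its adjusted form for the baseline comparison, and none of these was used. Dividing each library by its smallest step gave whole reads for 100% of values (tolerance 0.05). 0 columns had no sample.

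Genes averaging at least 10 normalized counts were tested as log2(value + 1) with limma 3.58.1 (R 4.3.3, trended variance) in 1 fit of 16 libraries and 6 groups, so fold changes of low genes are understated. A change was called at an adjusted p (Benjamini-Hochberg) under 0.05 and 2-fold. Alternatives were TMM, total count with and without loci related to ribosomal RNA, a pseudocount of 0.1, no filter, edgeR 4.0.16 and DESeq2 1.42.0 on recovered reads, array weights, a replicate block, only the groups compared, and each library left out. Counting error is small beside the spread between hearts except for genes with few reads. The members and lists were chosen with earlier results of these data known. Named genes are the members, up to 4 called genes per list with the smallest p after MI in PKM2fl/fl hearts, and the 2 genes most correlated with each member; others were chosen after their values were seen. Lengths and overlaps came from GENCODE release M39.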

Additional observations from a re-analysis of the deposited data

Results flagged for a closer look

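*Thbs2* was the 1 result that stood out, because in the normalized counts the genotypes differed in opposite directions in unoperated and infarcted hearts. At baseline both PKM2-/- hearts (972 and 788 normalized counts) lay above both PKM2fl/fl hearts (646 and 733), and after MI all 3 PKM2-/- hearts (919, 1260 and 1081) lay below all 3 PKM2fl/fl hearts (1445, 1687 and 1300.5). The difference between these differences was -0.79 on the log2 scale (SE 0.22, limma, adjusted p = 0.311), tested after the values had been seen, and it did not pass over all genes. With total count scaling the baseline difference was -0.24 and the difference between the differences 0.16, so the opposite directions were lost in that scaling. Total count scaling without the loci related to ribosomal RNA gave -0.50 for the difference between the differences, and TMM scaling gave -0.76. Neither passed over all genes in limma (adjusted p = 0.400 and 0.309). With 2 hearts per genotype at baseline, 17.7% of all genes lay wholly higher in PKM2-/- hearts.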

How the results depend on the processing

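The number of members called stayed at 9 in both MI comparisons and at 0 in the interaction and the 3 genotype comparisons under every alternative run. Between sham and baseline in PKM2fl/fl hearts it was 0, but 2 with total count scaling (*Spp1* and *Tnc*), 1 with DESeq2 (*Spp1*), 2 with array weights (*Spp1* and *Tnc*) and 0 to 2 with 1 library left out. In PKM2-/- hearts it was 1, but 2 with total count scaling, 0 with edgeR and 0 to 1 with 1 library left out. Of 2160 alternative values of single members, 86 turned sign, none of them a called value and 0 in the MI comparisons with sham; 46 came from leaving out 1 library and 21 from total count scaling. The cause was not tested.

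Counts over all genes moved more. The interaction called 0 genes, but 52 with total count scaling, 36 with DESeq2, 1 with array weights and 227 without the third PKM2fl/fl MI heart. The genotype comparison after MI called 85 genes, but 271 with DESeq2, 529 with array weights, 6 with only the groups compared and 11 to 634 with 1 library left out (634 without the third PKM2fl/fl MI heart). After sham it called 1, but 113 with total count scaling, 111 with DESeq2, 39 with array weights, 9 with only the groups compared, 0 without a filter or the ribosomal loci, and 0 to 50 with 1 library left out (50 without the third PKM2-/- sham heart). At baseline it called 2, but 44 with total count scaling, 9 with a pseudocount of 0.1, 1 with edgeR, 18 with DESeq2, 4 with array weights, 46 with only the groups compared and 0 to 40 with 1 library left out (40 without the first PKM2-/- baseline heart, 37 of them lower). Between sham and baseline in PKM2fl/fl hearts 35 genes were called, but 94 with total count scaling, 22 with edgeR, 237 with DESeq2, 321 with array weights, 1 with only the groups compared and 7 to 212 with 1 library left out (212 without the third sham heart). In PKM2-/- hearts 548 were called, and 242 to 618 with 1 library left out (242 without the second baseline heart). The *Thbs2* difference between genotypes, MI minus baseline, turned from -0.79 to 0.16 with total count scaling. It was -0.50 when that scaling left out the loci related to ribosomal RNA, and ran from -0.94 to -0.64 with 1 library left out. These alternatives were chosen after seeing the data.

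Replicate numbers did not pair the hearts, which were separate mice. A replicate block changed no member's call and took the genotype comparisons to 46 genes after MI, 0 after sham and 1 at baseline, and sham against baseline in PKM2fl/fl hearts to 23.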

Other observations

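Further cell type lists were read after MI. Of 5 neutrophil markers 2 rose in each genotype. Of 4 platelet and megakaryocyte markers tested, 2 rose in PKM2fl/fl and 3 in PKM2-/- hearts. Of 4 epicardial and mesothelial markers, 0 were called in PKM2fl/fl and 3 rose in PKM2-/- hearts, and the difference between genotypes was called for 0 genes by limma. Of 4 smooth muscle and pericyte markers, 0 were called in PKM2fl/fl and 2 fell in PKM2-/- hearts. Of 4 erythroid, 3 atrial and 1 tested adipocyte marker, 0 were called in either genotype. In sham hearts of both genotypes against baseline, 0 genes of the cardiomyocyte, fibroblast, myofibroblast, platelet, endothelial, smooth muscle, epicardial, erythroid and atrial lists were called. In PKM2fl/fl hearts the median log2 difference was still 3.96 for the atrial and 2.10 for the epicardial list. There 3 of 3 and 3 of 4 markers had an unadjusted p under 0.05 in limma. In PKM2-/- hearts the medians were 1.32 and 1.18, with 1 such marker in each list. Between sham and baseline, 4 of 12 matrix partners, 2 of 19 receptors, 1 of 22 other matricellular genes and 0 of 15 regulators rose in PKM2-/- hearts, and 1, 0, 0 and 0 in PKM2fl/fl hearts.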
